A study of Mus musculus with 15 samples.

Results

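Breakdown of the branched-chain amino acids leucine, isoleucine and valine was followed through 10 genes, Bcat2, Bckdha, Bckdhb, Dbt, Mccc1, Mccc2, Auh, Hibadh, Pcca and Pccb, out of 39179 genes counted in each library. The genes were chosen by name as enzymes of this pathway, and all 10 were found in all 15 libraries by matching gene identifiers to symbols. RNA was sequenced from quadriceps muscle of C57BL/6 mice. There were 4 wild-type and 4 V338Y mice at 3 mo of age and 3 wild-type and 4 V338Y mice at 19 mo. Mice called V338Y here have sample titles that read Kl. They carry an amino acid exchange in Mrps5, a protein of the small subunit of the mitochondrial ribosome. The study's methods describe the strain as homozygous. No other allele or treatment is given for any group.

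Several facts about the libraries bear on all results. Xist, the transcript that marks the inactive X chromosome, reached 506 to 631 CPM (counts per 1000000 counts of the library, scaled by the trimmed mean of M-values, TMM) in the 7 libraries labelled 19 mo and at most 0.575 CPM in the 8 libraries labelled 3 mo. The Y-linked Ddx3y showed the opposite, with 163 to 202 CPM at 3 mo and at most 0.0827 CPM at 19 mo, although the study's methods call the young mice female. Age and sex therefore cannot be told apart in the age comparisons below, whereas by these transcripts each genotype comparison was within the same sex. Whether the statement in the methods or the age labels of the libraries are in error was not tested, and 3 and 19 mo below always mean the libraries so labelled. If the labels were wrong, the age differences would not be those of the ages named. Mrps5 itself gave a log2 fold change between genotypes of 0.12 at 3 mo (edgeR adjusted p = 0.665) and 0.01 at 19 mo (adjusted p = 0.996), so its level does not check the genotype labels. The 8 muscle fibre markers and 6 fast fibre markers were detected in every library, and totals ran from 8250653 to 18968132 counts. The library of V338Y mouse 5 at 19 mo stood apart with 606 CPM summed over 7 neutrophil markers and 2686 CPM over 7 slow fibre markers, and V338Y mouse 4 at 19 mo had 1547 CPM over 11 adipocyte markers. Wild-type mouse 1 at 3 mo had 1689 CPM over the adipocyte markers. Nothing in the labels says which animals shared a cage, litter or processing day.

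As background, muscle is a main site where branched-chain amino acids begin to be broken down. An aminotransferase first passes their amino group to 2-oxoglutarate, and the resulting keto acids are oxidized by a large mitochondrial complex, the branched-chain keto acid dehydrogenase (BCKDH). That complex is switched off when its kinase phosphorylates it and switched on again by its phosphatase. The arms for leucine, valine and isoleucine then diverge, with leucine ending in acetyl-CoA and acetoacetate, valine in propionyl-CoA and isoleucine in acetyl-CoA and propionyl-CoA. Propionyl-CoA is carboxylated and rearranged to succinyl-CoA, which enters the tricarboxylic acid (TCA) cycle.

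Mccc1 and Mccc2 encode the alpha and beta subunits of 3-methylcrotonyl-CoA carboxylase, a biotin enzyme of leucine breakdown. Pcca and Pccb encode the corresponding subunits of propionyl-CoA carboxylase. The promoters of these 4 genes are shown because their transcripts gave the partner ratios described below, in which Mccc1 was called higher and Mccc2 lower with age in V338Y mice and Pccb but not Pcca was called lower in both genotypes. Each line gives the 150 bases before the transcript start in RefSeq (GRCm38.p6), written 5′ to 3′ along the gene's own strand. Capitals mark matches on either strand to a CCAAT box (CCAAT), a GC box (GGGCGG) or an E-box (CACGTG), and neighbouring CCAAT matches in Mccc2 overlap. The windows are chr3:36000679-36000828 on the minus strand for Mccc1, chr13:100015640-100015789 on the minus strand for Mccc2, chr14:122534178-122534327 on the plus strand for Pcca at the listed start site nearest the annotated gene start, and chr9:101034885-101035034 on the minus strand for Pccb.
Mccc1: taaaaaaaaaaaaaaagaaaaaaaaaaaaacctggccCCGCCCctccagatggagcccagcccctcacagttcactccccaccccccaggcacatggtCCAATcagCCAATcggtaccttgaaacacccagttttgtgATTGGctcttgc
Mccc2: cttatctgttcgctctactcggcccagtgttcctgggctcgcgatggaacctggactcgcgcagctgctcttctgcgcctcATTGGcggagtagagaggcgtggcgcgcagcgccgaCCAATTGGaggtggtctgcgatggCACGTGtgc
Pcca: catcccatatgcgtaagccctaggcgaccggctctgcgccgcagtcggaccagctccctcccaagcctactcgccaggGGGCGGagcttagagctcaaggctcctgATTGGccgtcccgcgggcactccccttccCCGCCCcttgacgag
Pccb: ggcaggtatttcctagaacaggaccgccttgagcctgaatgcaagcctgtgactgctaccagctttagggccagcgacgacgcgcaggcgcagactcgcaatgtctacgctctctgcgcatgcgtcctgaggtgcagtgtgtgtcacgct
Mccc1, Mccc2 and Pcca held CCAAT boxes and the window of Pccb held no match to the motifs marked. RefSeq promoters were found for 9 of the 10 genes, with 12 start sites in all, and were searched from 250 bases before to 50 bases after the start. A CCAAT box was present in 7 of the 12 (58.3%, against 37.4% of 32851 mouse promoters) and a GC box in 5 (41.7%, against 35.7%). An E-box was found in Mccc2 alone (8.33% of the 12, against 7.15%). The site TNAAGGTCA of the oestrogen-related receptors and the palindromic NRF1 site, both searched on either strand, matched 0 of the 12 and 1.28% and 0.971% of all promoters.

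Per kilobase of annotated exon, Bckdha was the most abundant of the 10 transcripts in every group, with group means of 35.0 to 51.3 CPM per kb. Pccb was second in every group, at 15.8 to 21.3 CPM per kb, and its highest mouse (25.6) stayed under the lowest mouse of Bckdha (31.0). Dbt, Mccc2, Bckdhb, Bcat2, Hibadh and Pcca formed a middle range in which single mice ran from 6.15 to 15.04 CPM per kb, and the mice of neighbours in that order overlapped. Auh (2.95 to 4.404 CPM per kb as group means) and Mccc1 (1.996 to 3.16) were lowest. At 3 mo Auh exceeded Mccc1 in both genotypes, whereas at 19 mo their means were 3.17 and 3.07 in wild-type and 2.95 and 3.16 in V338Y mice, within the spread of single mice. The length takes in all annotated exons, from 1805 bases for Bckdhb to 10952 bases for Mccc1. The order per kilobase therefore depends on the annotation. Before division by length, Hibadh (62.6 to 104 CPM) overlapped Bckdha (58.9 to 107 CPM), and Bckdhb (14.7 to 19.7 CPM) was lowest in every mouse. Counts for single genes ran from 153 (Bckdhb) to 1557 (Bckdha) per library. All 10 genes passed the filter on low counts in every comparison.

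**Figure D1:**
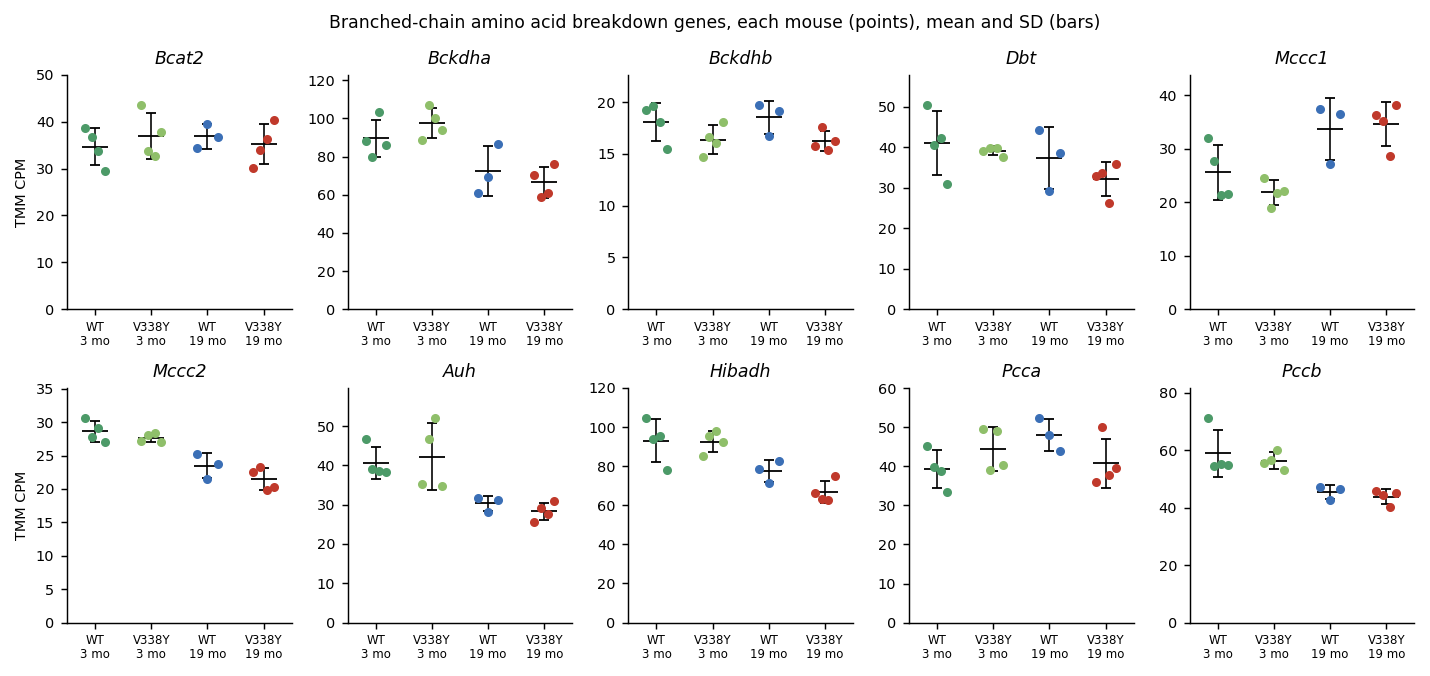
TMM-scaled CPM of the 10 genes in each mouse (points), with the mean and SD of each group (bars), against genotype and age. Mccc2, Auh and Pccb are lower in every mouse at 19 mo than in any at 3 mo of the same genotype, and Mccc1 is higher in every V338Y mouse at 19 mo (28.7 to 38.1 CPM) than at 3 mo (19.0 to 24.6 CPM).

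The first question was how the pathway's transcripts differ between 19 and 3 mo in each genotype. All values are relative differences as set by TMM scaling, under which the median gene lay at 0.02 in wild-type and 0.07 in V338Y mice. In wild-type muscle 3 of the 10 genes, Mccc2, Auh and Pccb, were lower at 19 mo at an adjusted p under 0.05 and 0 were higher. Of all 13657 genes tested, 36.2% passed in either direction, 17.8% lower and 18.3% higher. In V338Y muscle 5 genes, Bckdha, Mccc2, Auh, Hibadh and Pccb, were lower and Mccc1 was higher, against 46.9% of 13868 genes in either direction, 22.5% lower and 24.4% higher. The median log2 fold change of the 10 genes was -0.20 in wild-type mice (0.02 over all genes) and -0.31 in V338Y mice (0.07 over all genes). Groups did not overlap for 3 genes in wild-type mice, all lower (43.4% of all genes in either direction), and for 7 in V338Y mice, 6 lower and 1 higher (42.2% of all genes). The genotypes share no mice in these comparisons, and whether their age differences differ was tested separately below.

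These calls depended on the scaling and on single libraries. Scaling to library totals alone, an alternative chosen after seeing the data, moved the median gene by 0.29 in V338Y mice. It then left Mccc1 (0.96) and Bckdhb (0.29, adjusted p = 0.0338) as the calls, both higher, while Bckdha (-0.24), Mccc2 (-0.06), Auh (-0.27), Hibadh (-0.17) and Pccb (-0.06) were no longer past the threshold, and 81% of all calls were higher in place of 52.1%. In wild-type mice the same scaling moved the median gene by 0.094, left Auh (-0.33, adjusted p = 0.0313) as the lower call and called Mccc1 (0.49) and Pcca (0.39) higher, and 66.2% of all calls were higher in place of 50.7%. Without wild-type mouse 4 at 19 mo, 0 of the 10 genes were called in wild-type mice. Leaving out V338Y mice 4 and 5 at 19 mo together was likewise not planned beforehand. Without them 5 genes remained past the threshold in V338Y mice (edgeR adjusted p = 0.0505 for Mccc2).

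Bcat2 encodes the mitochondrial aminotransferase of the first step. It did not pass the test in any comparison. Its levels ran from 29.5 to 38.6 CPM in wild-type mice at 3 mo and from 34.3 to 39.5 CPM at 19 mo. In V338Y mice they ran from 32.7 to 43.5 CPM at 3 mo and from 30.0 to 40.2 CPM at 19 mo. All groups overlapped, and the log2 fold change with age was 0.09 (95% interval -0.16 to 0.34) in wild-type and -0.06 (-0.33 to 0.21) in V338Y mice. Bcat1, its cytosolic counterpart, was at 0 to 1.04 CPM and was not tested. The annotation places an antisense gene, 0610005C13Rik, over 622 exonic bases of Bcat2, and it was not among the counted genes.

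The BCKDH complex is built from the E1 subunits Bckdha and Bckdhb, the E2 transacylase Dbt and the E3 subunit Dld, which other complexes share. Bckdha stood at 88.4, 79.8, 103 and 86.2 CPM in the wild-type mice at 3 mo and at 61.0, 69.0 and 86.8 CPM at 19 mo. In the V338Y mice it stood at 88.7, 107, 100 and 93.9 CPM at 3 mo and at 70.3, 58.9, 60.8 and 76.2 CPM at 19 mo. Every V338Y mouse at 19 mo was below every V338Y mouse at 3 mo, whereas wild-type mouse 5 at 19 mo lay inside the range of the young mice. The log2 fold change was -0.54 ± 0.11 (SE, edgeR adjusted p = 0.00369) in V338Y and -0.31 ± 0.14 (adjusted p = 0.107) in wild-type mice. Without wild-type mouse 5 at 19 mo the latter became -0.47 (adjusted p = 0.0225). B3gnt8 overlaps Bckdha on the opposite strand over 1171 exonic bases and had 106 counts in all libraries together.

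Bckdhb, the partner subunit of E1, stayed between 14.7 and 19.7 CPM in all 15 mice. Its log2 fold change with age was 0.04 (95% interval -0.22 to 0.29) in wild-type and 0.0017 (-0.21 to 0.22) in V338Y mice, with groups overlapping. Dbt ran from 31.0 to 50.3 CPM in wild-type mice at 3 mo and from 29.2 to 44.3 CPM at 19 mo. In V338Y mice Dbt stood at 39.0, 39.8, 39.9 and 37.6 CPM at 3 mo and at 32.8, 33.6, 26.3 and 35.9 CPM at 19 mo. The V338Y groups of Dbt did not overlap, but the difference of -0.27 ± 0.10 missed the threshold (adjusted p = 0.0519) and passed it without V338Y mouse 5 at 19 mo (adjusted p = 0.0287). Dld, from the list of other pathway genes, fell by 0.65 ± 0.10 in wild-type (adjusted p = 0.00130) and by 0.73 ± 0.13 in V338Y mice (adjusted p = 0.00205).

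The counts of partner subunits were also compared within each library, where depth and scaling cancel. Bckdha was counted 4.58, 4.07, 5.70 and 5.55 times as often as Bckdhb in wild-type mice at 3 mo and 3.09, 4.12 and 4.51 times as often at 19 mo. In V338Y mice the ratio was 6.02, 6.40, 6.22 and 5.18 at 3 mo and 4.46, 3.35, 3.95 and 4.70 at 19 mo. The V338Y ages did not overlap and the wild-type ages did. The log2 ratio differed by -0.54 in V338Y mice (exact permutation test, two-sided, p = 0.0286) and by -0.35 in wild-type mice (exact permutation p = 0.171). For Dbt to Bckdhb the differences were -0.28 (exact permutation p = 0.0857) and -0.17 (exact permutation p = 0.286), with overlapping groups. In all, 20 ratio differences were tested, the smallest adjusted p was 0.214, and no exact permutation test of 4 against 3 mice can give a p below 0.0571 or of 4 against 4 mice below 0.0286, the smallest they can give. With these group sizes no adjusted p of the 20 tests could have been below 0.0571, so none could pass the threshold.

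**Figure D2:**
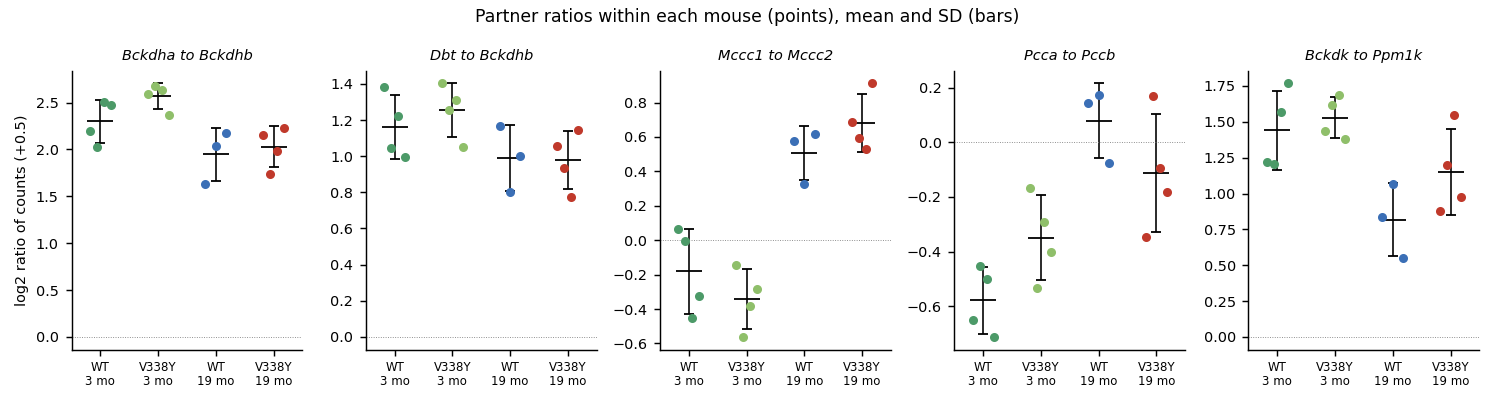
Log2 ratio of the counts (plus 0.5) of partner genes in each mouse (points), with group mean and SD (bars), by genotype and age. The ratio of Mccc1 to Mccc2 separates the ages in both genotypes, with means of -0.18 and 0.51 in wild-type and -0.34 and 0.68 in V338Y mice, and the ratio of Pcca to Pccb separates them in wild-type mice.

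The kinase Bckdk and the phosphatase Ppm1k act on the E1 subunit in opposite ways. Bckdk stood at 83.0 to 101 CPM in wild-type mice at 3 mo and at 61.4 to 71.2 CPM at 19 mo. In V338Y mice it stood at 92.0 to 111 CPM at 3 mo and at 55.6 to 69.9 CPM at 19 mo. The ages did not overlap in either genotype, with log2 fold changes of -0.45 ± 0.10 (adjusted p = 0.00801) in wild-type and -0.66 ± 0.10 (adjusted p = 0.000956) in V338Y mice. Ppm1k gave 0.19 (adjusted p = 0.411) and -0.24 (adjusted p = 0.249), and its groups overlapped. The ratio of Bckdk to Ppm1k differed with age by -0.62 in log2 in wild-type mice (exact permutation p = 0.0571, groups apart) and by -0.38 in V338Y mice (exact permutation p = 0.0857, groups overlapping).

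In the leucine arm, the subunits of 3-methylcrotonyl-CoA carboxylase were called in opposite directions with age in V338Y mice, whereas in wild-type mice Mccc2 alone was called. Mccc1 stood at 31.9, 27.6, 21.3 and 21.6 CPM in wild-type mice at 3 mo and at 37.5, 27.0 and 36.5 CPM at 19 mo. In V338Y mice it stood at 24.6, 19.0, 21.8 and 22.1 CPM at 3 mo and at 36.4, 35.1, 28.7 and 38.1 CPM at 19 mo. The V338Y ages did not overlap, and the rise was 0.67 ± 0.11 in log2, or 1.59-fold (adjusted p = 0.00139). In wild-type mice, where mouse 4 at 19 mo lay within the range of the young mice, the value was 0.40 ± 0.17 (adjusted p = 0.0926), and it was 0.52 (adjusted p = 0.0379) without mouse 1 at 3 mo. The antisense genes Gm15952 and Mccc1os overlap 94 and 198 exonic bases of Mccc1 and had 80 and 61 counts in all libraries together, against 5554 for Mccc1.

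Mccc2 stood at 30.6, 27.8, 29.1 and 27.0 CPM in wild-type mice at 3 mo and at 25.2, 21.6 and 23.7 CPM at 19 mo. The V338Y mice held 27.2, 28.0, 28.4 and 27.0 CPM at 3 mo and 22.5, 23.3, 19.9 and 20.2 CPM at 19 mo. Every old mouse was below every young mouse of its genotype. The fall was 0.35 ± 0.09 in V338Y mice (log2 fold change -0.35, adjusted p = 0.00827). In wild-type mice it was -0.28 ± 0.09 (adjusted p = 0.0428), a call that was lost on leaving out any of 6 mice, namely mouse 4 or 5 at 19 mo and mouse 1, 2, 3 or 4 at 3 mo (adjusted p = 0.0522 to 0.138), and under DESeq2 (adjusted p = 0.0594).

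Within each library, Mccc1 was counted 1.04, 0.995, 0.732 and 0.799 times as often as Mccc2 in wild-type mice at 3 mo and 1.49, 1.25 and 1.54 times as often at 19 mo. In V338Y mice the ratio was 0.905, 0.677, 0.767 and 0.821 at 3 mo and 1.61, 1.51, 1.44 and 1.88 at 19 mo. In both genotypes the lowest old mouse exceeded the highest young mouse. The ratio was 2.03-fold higher at 19 mo in V338Y mice (log2 difference 1.02, exact permutation p = 0.0286, adjusted p = 0.214) and 1.61-fold higher in wild-type mice (0.69, exact permutation p = 0.0571, adjusted p = 0.214). Leaving out single mice gave log2 differences of 0.95 to 1.09 in V338Y and 0.60 to 0.78 in wild-type mice.

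Auh encodes 3-methylglutaconyl-CoA hydratase, the step after the carboxylase, and was also described as an RNA-binding protein. It stood at 46.7, 39.2, 38.5 and 38.4 CPM in wild-type mice at 3 mo and at 31.8, 28.1 and 31.2 CPM at 19 mo. For V338Y mice the values were 35.3, 46.7, 52.0 and 34.8 CPM at 3 mo and 25.5, 29.1, 27.6 and 30.9 CPM at 19 mo. The ages did not overlap in either genotype. The log2 fold change was -0.42 ± 0.10 (adjusted p = 0.0124) in wild-type and -0.56 ± 0.14 (adjusted p = 0.00977) in V338Y mice, and the wild-type call was lost without mouse 4 at 19 mo (adjusted p = 0.0528).

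Hibadh, which oxidizes 3-hydroxyisobutyrate in the valine arm, stood at 104, 93.9, 95.7 and 77.9 CPM in wild-type mice at 3 mo and at 78.8, 71.6 and 82.5 CPM at 19 mo. The V338Y mice had 85.2, 95.2, 97.8 and 92.2 CPM at 3 mo and 66.4, 63.0, 62.6 and 74.8 CPM at 19 mo. The V338Y ages were separate and the wild-type ages met at mouse 4 of the young group. The log2 fold change was -0.46 ± 0.09 (adjusted p = 0.00333) in V338Y mice and -0.26 ± 0.11 (adjusted p = 0.0973) in wild-type mice, and without wild-type mouse 4 at 3 mo the latter was -0.34 (adjusted p = 0.0319).

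Propionyl-CoA carboxylase receives the products of valine and isoleucine. Pcca, its biotin-carrying alpha subunit, stood at 45.2, 39.9, 38.9 and 33.5 CPM in wild-type mice at 3 mo and at 52.3, 48.0 and 43.9 CPM at 19 mo. In V338Y mice it stood at 49.5, 39.0, 49.1 and 40.2 CPM at 3 mo and at 36.0, 50.03, 37.7 and 39.6 CPM at 19 mo. All these groups overlapped. The log2 fold change was 0.29 ± 0.12 (adjusted p = 0.0755) in wild-type mice, with 0.36 (adjusted p = 0.0421) without mouse 1 at 3 mo, and -0.11 ± 0.13 (adjusted p = 0.483) in V338Y mice. Ggact overlaps 241 exonic bases of Pcca on the opposite strand and had 1302 counts in all libraries together, against 8345 for Pcca.

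Pccb, the beta subunit, stood at 71.0, 54.6, 55.1 and 54.9 CPM in wild-type mice at 3 mo and at 47.3, 42.6 and 46.3 CPM at 19 mo. The V338Y mice had 55.6, 56.5, 60.2 and 53.1 CPM at 3 mo and 45.8, 44.5, 40.2 and 44.9 CPM at 19 mo. Every old mouse was below every young mouse in both genotypes. The log2 fold change was -0.37 ± 0.11 (adjusted p = 0.0313) in wild-type and -0.35 ± 0.08 (adjusted p = 0.00697) in V338Y mice. The wild-type call was lost without mouse 4 at 19 mo (adjusted p = 0.105), mouse 5 at 19 mo (adjusted p = 0.0512) or mouse 1 at 3 mo (adjusted p = 0.0526). Pcca was counted 0.637, 0.731, 0.707 and 0.610 times as often as Pccb in wild-type mice at 3 mo and 1.10, 1.13 and 0.948 times as often at 19 mo, groups that did not overlap (1.58-fold, exact permutation p = 0.0571, adjusted p = 0.214). In V338Y mice this ratio ran from 0.690 to 0.891 at 3 mo and from 0.786 to 1.12 at 19 mo, which overlapped (1.18-fold, exact permutation p = 0.143).

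**Figure D3:**
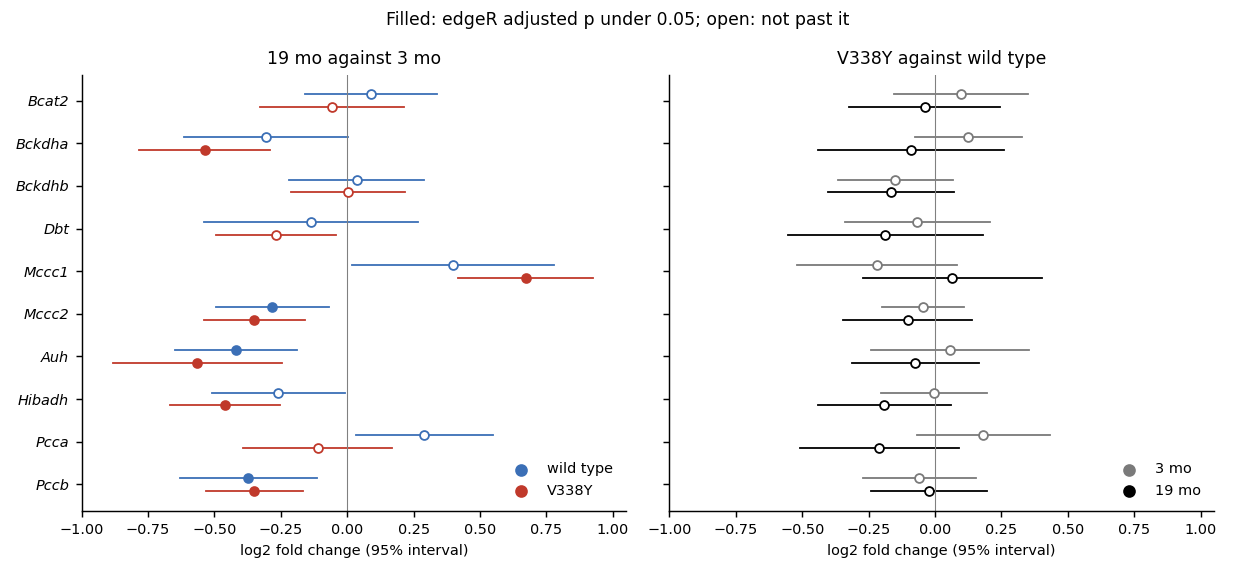
Log2 fold change with 95% interval of each gene in the age comparisons (left) and the genotype comparisons (right), filled where the edgeR adjusted p is under 0.05. With age 3 genes are filled in wild-type and 6 in V338Y mice, Mccc1 lies at 0.40 and 0.67, and no gene is filled for genotype.

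Markers of several cell types differed between the ages too. All 8 muscle fibre markers had lower values at 19 mo in both genotypes, 3 of them called in wild-type and 6 in V338Y mice, and none was at 0 in any mouse. Their summed level was 212500 to 249300 CPM at 3 mo and 179900 to 216000 CPM at 19 mo in wild-type mice, and 234800 to 261200 CPM at 3 mo and 128000 to 202500 CPM at 19 mo in V338Y mice. The 5 endothelial markers had higher values at 19 mo, with 2 called in wild-type and 3 in V338Y mice. Their sums separated the ages, with 149 to 187 CPM at 3 mo and 201 to 309 CPM at 19 mo in wild-type mice and 149 to 174 CPM and 214 to 334 CPM in V338Y mice. Of 6 fibroblast markers the collagen genes Col1a1, Col1a2 and Col3a1 were called lower in both genotypes and Pdgfra was called higher in wild-type mice. The fibroblast sums were apart in V338Y mice (1771 to 1868 CPM at 3 mo, 782 to 1723 CPM at 19 mo) and overlapped in wild-type mice (1175 to 1853 CPM and 1001 to 1314 CPM). Of the 10 macrophage markers 5 were called higher in each genotype. The 11 adipocyte markers had lower values at 19 mo in wild-type mice, 3 called, and higher values in V338Y mice, 5 called. Their interaction of age and genotype was called for 0 of the 11 (smallest edgeR adjusted p = 0.364). The opposite directions are therefore not shown to be a difference between the genotypes. Of 7 slow fibre markers 7 were called higher in wild-type and 0 in V338Y mice, where all 7 also had higher values (smallest edgeR adjusted p = 0.0549). The interaction of age and genotype, described below, was called for 0 of these 7, so no difference between the genotypes is shown. Their sums overlapped between the ages in wild-type (57.13 to 71.39 CPM at 3 mo, 67.83 to 807.9 CPM at 19 mo) and V338Y mice (48.99 to 173 CPM and 58.41 to 2686 CPM). Of the 7 neutrophil markers Mpo, Elane, Ltf and Ngp were at 0 in every mouse at 3 mo. With age 2 were tested in wild-type mice, 0 of them called. In V338Y mice 6 were tested, all higher at 19 mo, and 5 were called. The V338Y sums were 0.3309 to 1.149 CPM at 3 mo. At 19 mo they were 2.404, 25.62, 4.517 and 606.2 CPM in mice 2, 3, 4 and 5. The interaction was called for 0 of the 6 neutrophil markers tested. The part of these markers in the differences of the pathway's genes was not tested, and in whole muscle fewer cells of a type and less RNA per cell cannot be told apart.

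The other genes of the pathway were described from a list of 30, of which 28 were tested. In wild-type mice 3 were called higher and 12 lower with age, and in V338Y mice 3 higher and 15 lower (5 higher and 6 lower under library totals), with median log2 fold changes of -0.33 and -0.39 (0.02 and 0.07 over all genes). Over all genes tested, 18.3% were called higher and 17.8% lower in wild-type mice and 24.4% higher and 22.5% lower in V338Y mice. Slc7a8, a plasma membrane amino acid carrier, was higher in wild-type (0.82) and V338Y mice (0.58), and so was Slc3a2 (0.38 and 0.51), the heavy chain that places such carriers in the membrane. Hlcs, which attaches biotin to the carboxylases including Mccc1 and Pcca, was named after its values were seen and was also called higher, by 0.62 and 0.39. Slc25a44, the mitochondrial carrier of branched-chain amino acids, gave -0.41 in V338Y mice (adjusted p = 0.0109). In wild-type mice it gave -0.33 and just missed the threshold (adjusted p = 0.0528), and the ages did not overlap in either genotype.

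Among the enzymes of the valine arm, Hibch fell by 0.67 ± 0.10 in wild-type (adjusted p = 0.00117) and by 0.54 ± 0.09 in V338Y mice (adjusted p = 0.000970). Acad8, the isobutyryl-CoA dehydrogenase, fell by 0.57 and 0.65. Hadh, a hydroxyacyl-CoA dehydrogenase listed with the isoleucine arm, fell by 0.66 and 0.56. Beyond propionyl-CoA, Mmadhc, a cobalamin processing protein, fell by 0.45 and 0.55, and Mcee, the methylmalonyl-CoA epimerase, fell by 0.52 and 0.65. Mmaa was called lower in both genotypes, at -0.51 in wild-type (edgeR adjusted p = 0.0432) and -0.70 in V338Y mice. Mut, the methylmalonyl-CoA mutase, was called lower in V338Y mice (-0.48) and missed the threshold in wild-type mice (-0.34, adjusted p = 0.0510). Mmab was called lower in V338Y mice (-0.72) and not in wild-type mice (-0.27, adjusted p = 0.222). Klf15, a transcription factor linked to this pathway in muscle, gave 0.39 (adjusted p = 0.163) in wild-type and -0.09 (adjusted p = 0.795) in V338Y mice. For comparison, 11 of 17 TCA cycle genes were called lower in wild-type and 9 in V338Y mice with 1 higher in each, and 5 and 4 of 9 genes of the pyruvate dehydrogenase complex were called lower with 1 higher in each, where 17.8% and 22.5% of all genes were called lower.

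**Figure D4:**
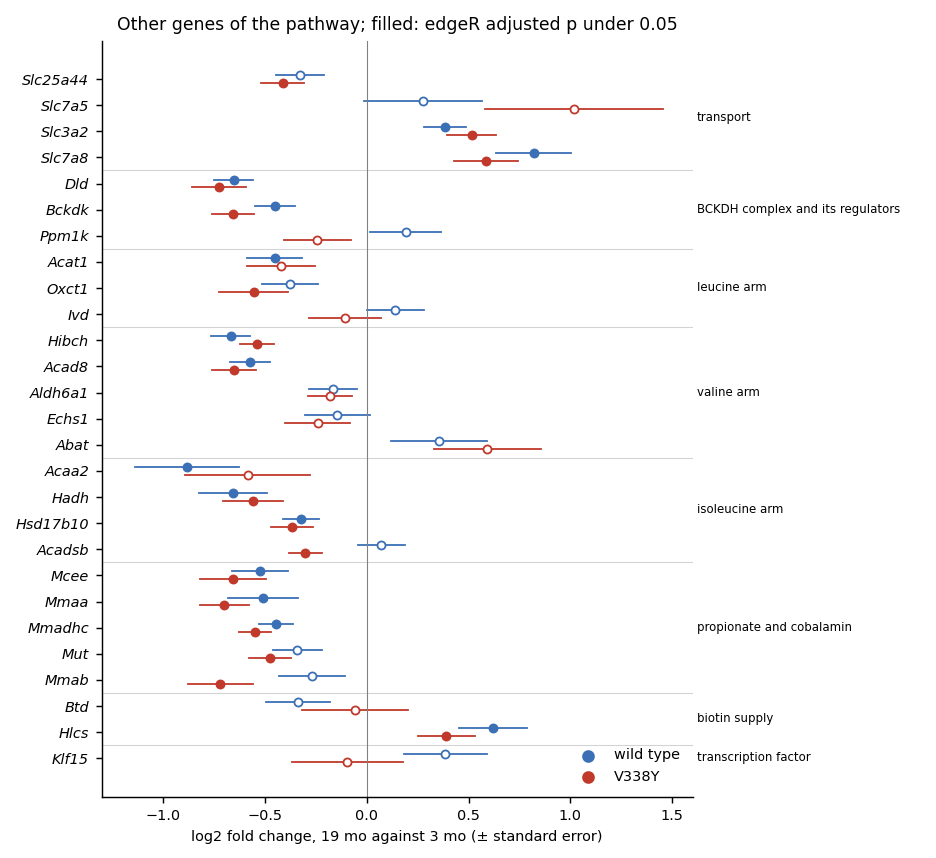
Log2 fold change with standard error of other pathway genes tested, 19 mo against 3 mo, in wild-type and V338Y mice, grouped by step and filled where the edgeR adjusted p is under 0.05. Points lie mostly left of 0, and the 3 genes filled right of 0 in both genotypes are Slc3a2, Slc7a8 and Hlcs.

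The second question was whether V338Y mice differ from wild-type mice of the same age. At 3 mo 0 of the 10 genes were called by edgeR, 0 passed an unadjusted p under 0.05, and 0 were called by DESeq2. Of all 13333 genes edgeR called 0.0750%, and 9.70% had an unadjusted p under 0.05. The log2 fold changes ran from -0.22 for Mccc1 (95% interval -0.52 to 0.08) to 0.18 for Pcca (-0.07 to 0.43), with a median of -0.02. All 10 genes had overlapping genotypes, where 4.71% of all genes did not overlap. No interval of a single gene reached beyond -0.52 or 0.43. The 11 adipocyte markers were all lower in the V338Y mice at 3 mo, 0 of them called. The 8 muscle fibre, 6 fast fibre, 7 slow fibre and 6 fibroblast markers were all higher, 0 of them called. The part of these markers was not tested.

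At 19 mo 0 of the 10 genes were called by edgeR, 0 at an unadjusted p under 0.05 and 0 by DESeq2, against 0.0434% of 13833 genes called by edgeR and 8.93% at an unadjusted p under 0.05. Estimates were below 0 for 9 of the 10, but under library totals, which moved the median gene by 0.14, those of Bcat2, Bckdha, Mccc2, Auh and Pccb turned above 0. They ran from -0.21 for Pcca (95% interval -0.51 to 0.09) to 0.07 for Mccc1 (-0.27 to 0.40), and the widest interval, that of Dbt, was -0.56 to 0.18. The median was -0.10 (0.01 over all genes), and all 10 genes had overlapping genotypes (9.79% of all genes did not). With the mouse number as a block 0 of the 10 were called and 1, Pcca (-0.31, adjusted p = 0.217), had an unadjusted p under 0.05, while the calls over all genes went from 6 to 110. Of the other pathway genes 0 were called at either age. Acadsb, the short/branched-chain acyl-CoA dehydrogenase of isoleucine breakdown, was singled out after its values were seen, with 110 to 118 CPM in V338Y and 130 to 149 CPM in wild-type mice at 19 mo, a log2 fold change of -0.28 ± 0.10 that failed the correction (adjusted p = 0.537). The 11 adipocyte markers were all higher in the V338Y mice at 19 mo, 0 of them called. Their summed levels were 321 to 1547 CPM against 256 to 539 CPM. All 10 macrophage, 7 slow fibre and 5 endothelial markers and the 6 neutrophil markers tested were higher as well, 0 of them called. Of 8 muscle fibre markers 7 were lower, of 6 fast fibre markers 4 were lower and of 6 fibroblast markers 5 were higher, 0 of them called. The part of these markers was not tested.

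Whether the age difference itself differed between genotypes was tested as an interaction over all 15 mice. It was called for 0 of the 10 genes and 0.00% of 14128 genes by edgeR, where 9.63% of all genes had an unadjusted p under 0.05 and DESeq2 called 26 genes but 0 of the 10. Pcca gave the lowest value, -0.41 ± 0.18 (unadjusted p = 0.0380 in the edgeR fit, adjusted p = 0.498), and was the only one of the 10 at an unadjusted p under 0.05. Mccc1 gave 0.26 (95% interval -0.19 to 0.72) and Bckdha -0.24 (-0.62 to 0.14). The calls of Bckdha, Hibadh and Mccc1 in V338Y but not in wild-type mice are therefore not shown to be a difference between the genotypes.

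The 10 genes did not share a single pattern over the 15 mice. Likeness was measured as the root mean square (RMS) difference of log2 CPM centred over the mice, which is small where transcripts rise and fall together and is given as a description without a test. Mccc2 and Pccb were the closest pair (0.0805), followed by Hibadh and Pccb (0.110) and Mccc2 and Hibadh (0.115). Mccc1 lay farthest from Auh (0.567) and Bckdha (0.563). The nearest among all 14128 genes was Rac1 for Mccc2 (0.0612), Rcor3 for Bckdhb (0.0503), Swi5 for Hibadh (0.0915), D10Jhu81e for Bckdha (0.0996), Eif2b5 for Auh (0.106), Fip1l1 for Bcat2 (0.110), Eef1a2 for Pcca (0.111), Sf3a1 for Mccc1 (0.124) and Nt5dc1 for Dbt (0.134). The median over all genes was 0.357 to 0.469. These distances are over mice that share ages and libraries, and a gene that varies little has small distances to every other gene that varies little.

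On GRCm38 the 10 genes lie on chromosomes 3 (Dbt, 116513070 to 116549981, plus strand, and Mccc1, 35959312 to 36000678, minus), 6 (Hibadh, 52546228 to 52640389, minus) and 7 (Bcat2, 45570153 to 45589711, plus, and Bckdha, 25629946 to 25658981, minus). Chromosome 9 holds Bckdhb (83925145 to 84124240, plus) and Pccb (100982032 to 101034898, minus). Mccc2 (99948530 to 100015639, minus) and Auh (52835119 to 52929681, minus) lie on chromosome 13 and Pcca (122534324 to 122891100, plus) on chromosome 14. The alpha and beta subunits of each of the 3 enzymes are thus on different chromosomes.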

How the data were processed

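RNA of quadriceps muscle was sequenced by the authors with single-end reads. According to the methods, the kit was a stranded mRNA kit and the total RNA was depleted of ribosomal RNA. Gene expression was estimated with RSEM against an Ensembl annotation. The methods name the assembly GRCm37, whereas the submitters' processing notes list GRCm38 and also the human build GRCh37. The same notes list STAR 2.4.2a, bcl2fastq 1.8.4 and CASAVA 1.8. The deposited values are expected counts per gene, given as whole numbers and not normalized for depth or length, and the strand setting of the counting is not given in the sources used here. Identifiers were matched to a GENCODE annotation of GRCm38, where 37607 of 39179 had a symbol and position, and gene positions and exon lengths are from that annotation. Counts of 15 libraries were analysed, and of 105 pairs of files 0 were identical.

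The fits kept a gene where 50% or more of the mice in a compared group had 10 or more counts. Libraries were scaled by TMM and tested by edgeR 4.0.16 quasi-likelihood in R 4.3.3 with Benjamini-Hochberg adjustment over all genes tested. Only the groups compared entered a fit, and the interaction used all 15 mice. Partner ratios used counts plus 0.5 and exact two-sided permutation tests (scipy 1.17.1) adjusted over 20 tests. Likeness between genes used a prior count of 2. Scripts were tested on simulated data. The p-values set each difference between groups against the spread between these mice. DESeq2 1.42.0, other scalings, other filters, single mice left out and a block on the mouse number were the alternatives. Library totals alone and leaving out V338Y mice 4 and 5 at 19 mo together were added without being planned.

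The labels number the mice. At 19 mo the deviations of same-numbered mice of the 2 genotypes correlated at 0.133 to 0.377 in 3 pairs, within the range of 9 other pairs (-0.374 to 0.443). Deviations were taken from group means, so the pairs depend on each other and this check cannot show a pairing. The block on the mouse number rests on the numbers in the labels alone. The 10 genes and the lists were chosen with earlier results of these data known. Named beside the 10 genes are Dld, Bckdk, Ppm1k, Slc25a44, Bcat1, Klf15, up to 8 further called pathway genes with the smallest adjusted p in each comparison, the nearest gene of each, and Mrps5, Xist and Y-linked genes. A gene of the pathway list enters the counts and medians of that list and is not reported here by itself.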

Additional observations from a re-analysis of the deposited data

Results flagged for a closer look

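Wild-type mouse 1 at 3 mo lay far from the other 3 mice of its group in 2 of the 10 genes. Its level of Auh was 46.7 CPM, against 38.4 to 39.2 CPM in the others, and its level of Pccb was 71.0 CPM, against 54.6 to 55.1 CPM. Its gap to the nearest mouse, divided by the range of the group, exceeded the 95% critical value for 4 samples. In all 63 groups were examined for such values, of which chance alone marks about 1 in 20. The same mouse had the highest summed adipocyte markers of all 15 mice (1689 CPM), and the part of these in its levels was not tested. Without it the age difference in wild-type mice was -0.35 for Auh, which stayed past the threshold, and -0.27 for Pccb, which did not (edgeR adjusted p = 0.0526).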

How the results depend on the processing

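Of the 9 calls for the 10 genes, 156 alternative values gave 0 reversals and 24 values no longer past the threshold. In wild-type mice the 3 age calls became 0 with the mouse number as a block and 1 at an unadjusted p under 0.005, the 15 other pathway genes became 8 with the block, and the 4940 genes in all became 2229. In V338Y mice the 6 age calls became 2 and the 18 other pathway genes 11 under library totals. Calls over all genes were 10 at 3 mo, with 66 by DESeq2 and 33 without the filter, and 6 at 19 mo, with 62 by DESeq2, 14 without the filter and 110 with the block. For the interaction they were 0, with 26 by DESeq2, 5 without the filter and 28 with the block. The cause was not tested. Leaving out single mice gave 0 to 3 of the 10 genes and 9 to 15 other pathway genes with age in wild-type mice, and 3 to 14 genes in all at 3 mo and 2 to 7 at 19 mo.

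Estimates that changed sign were none of the calls. With age in wild-type mice, Dbt was 0.0318 with the block. With age in V338Y mice, Bckdhb was -0.0170 with DESeq2's size factors in edgeR, -0.0104 by DESeq2, -0.0186 without the filter, -0.0481 with the block and -0.0098 in a fit of all 15 mice. Hibadh at 3 mo was 0.0094 with upper-quartile scaling and 0.0020 with the block, and Pccb in the interaction was -0.0057 with the block. Under library totals, Bcat2 (0.23), Dbt (0.0216) and Pcca (0.17) changed sign with age in V338Y mice, Bcat2 (0.0992), Bckdha (0.0554), Mccc2 (0.0403), Auh (0.0676) and Pccb (0.12) at 19 mo, and Bcat2 (0.0415), Bckdhb (0.16), Dbt (0.0632), Mccc2 (0.13) and Auh (0.0545) in the interaction, where the median gene moved by 0.21. Without V338Y mice 4 and 5 at 19 mo together, Pccb at 19 mo was 0.0056 and in the interaction Bckdhb was 0.0164 and Mccc2 0.0332. Leaving out single mice gave these ranges. With age in wild-type mice, -0.0334 to 0.0934 for Bckdhb and -0.28 to 0.0040 for Dbt. With age in V338Y mice, -0.12 to 0.0241 for Bcat2 and -0.0558 to 0.0534 for Bckdhb. At 3 mo, -0.18 to 0.0459 for Dbt, -0.0581 to 0.14 for Auh, -0.0778 to 0.0581 for Hibadh and -0.0940 to 0.0448 for Pccb. At 19 mo, -0.11 to 0.0266 for Bcat2, -0.19 to 0.0642 for Bckdha, -0.0702 to 0.16 for Mccc1 and -0.0672 to 0.0129 for Pccb. In the interaction, -0.11 to 0.0409 for Bckdhb, -0.29 to 0.0014 for Dbt and -0.0893 to 0.0724 for Pccb. The genotype difference at 19 mo in the ratio of Bckdha to Bckdhb ran from -0.0797 to 0.19 and that of Dbt to Bckdhb from -0.11 to 0.0770, the latter being 0.0033 within same-numbered pairs.

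In the other comparisons same-numbered mice correlated at -0.127 to 0.016 with age in V338Y mice, -0.002 to -0.001 with age in wild-type mice and -0.224 to 0.15 at 3 mo. These values also cannot decide whether same-numbered mice are paired. At 19 mo the block changed no call of the 10 genes. Groups of 3 or 4 mice limit the precision, and with 153 to 1557 counts per gene and library, counting error is a part of the spread.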
